A study of Mus musculus with 12 samples.

Results

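The glycolytic enzymes described here were 10 mouse genes picked by name: Hk2, Gpi1, Aldoa, Aldoc, Tpi1, Gapdh, Pgk1, Pgam1, Pkm and Ldha. The list was set by gene name with no threshold on a value, but with earlier results of these data known. All 10 were among the 11786 genes of the deposited expression table, and all 10 passed the filter on low values, a largest group mean of at least 4. The cells were dendritic cells grown from mouse bone marrow with GM-CSF, a culture known to hold other myeloid cells as well. The 4 groups had 2 libraries each: wild-type cells alone, wild-type cells with tumour lysate, cells labelled ythdf1-/- alone, and cells labelled ythdf1-/- with tumour lysate. The lysate was necrotic B16-OVA, a mouse melanoma line carrying ovalbumin, left with the dendritic cells overnight before these were purified. YTHDF1 is a cytoplasmic protein that binds m6A-modified mRNA. The transcript of Ythdf1 itself did not separate the genotypes, at 9.43 to 9.72 in the wild-type and 9.43 to 9.53 in the other libraries (log2 level), so those cells are called KO-labelled here. Values are log2 levels per gene, relative to library size, and the number of reads behind them is unknown. The labels do not tie the 2 libraries of a group to different mice or cultures. A p-value therefore measures the spread between these libraries, and that spread may be technical.

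Glycolysis turns glucose into pyruvate in the cytosol. In the preparatory steps hexokinase (Hk2) traps glucose as glucose phosphate, glucose-phosphate isomerase (Gpi1) makes the fructose isomer, aldolase (Aldoa, Aldoc) splits the phosphorylated sugar, and triose-phosphate isomerase (Tpi1) interconverts the products. In the payoff steps Gapdh reduces NAD, Pgk1 and pyruvate kinase (Pkm) make ATP, and Pgam1 moves a phosphate within phosphoglycerate. Lactate dehydrogenase A (Ldha) then turns pyruvate into lactate and returns NAD. Dendritic cells are known to raise glycolytic flux on activation, and the hypoxia factor HIF is a known activator of many of these genes.

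HIF and MYC bind short cores in promoters, so the 250 bases upstream of each RefSeq start were searched on both strands for ACGTG, the HIF core, for GCGTG, its common variant, and for CACGTG, the E-box, which holds ACGTG on both strands. All 10 enzymes matched, with 15 promoters in all. ACGTG or GCGTG was found upstream of at least 1 start for 8 of the 10 genes and in 11 of the 15 promoters. The background was high: 55.6% of the promoters of genes in the expression table held either core, 21.7% held ACGTG, 44.3% held GCGTG and 8.42% held CACGTG. These shares are per promoter, like the 11 of 15, and no share per gene was computed to set beside the 8 of 10. Among the 10 genes, only Ldha held the E-box. Neither core was found upstream of Gpi1 or Tpi1. Promoters are shown for Ldha and Pgam1, which had the largest lysate responses in wild-type cells, for Hk2 and Aldoc, which had the largest genotype differences, and for Pgk1, a textbook HIF target. They are written in the direction of transcription with both cores in capitals (RefSeq, GRCm38.p6). These are Ldha at chr7:46845554-46845803 on the plus strand, Pgam1 at chr19:41911621-41911870 on the plus strand, Pgk1 at chrX:106186850-106187099 on the plus strand, Hk2 at chr6:82774455-82774704 on the minus strand and Aldoc at chr11:78322823-78323072 on the plus strand.
Ldha: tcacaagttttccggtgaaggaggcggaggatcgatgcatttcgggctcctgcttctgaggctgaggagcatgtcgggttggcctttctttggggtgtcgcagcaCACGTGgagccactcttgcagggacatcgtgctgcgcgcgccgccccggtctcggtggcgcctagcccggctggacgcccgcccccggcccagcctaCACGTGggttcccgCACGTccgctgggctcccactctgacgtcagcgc
Pgam1: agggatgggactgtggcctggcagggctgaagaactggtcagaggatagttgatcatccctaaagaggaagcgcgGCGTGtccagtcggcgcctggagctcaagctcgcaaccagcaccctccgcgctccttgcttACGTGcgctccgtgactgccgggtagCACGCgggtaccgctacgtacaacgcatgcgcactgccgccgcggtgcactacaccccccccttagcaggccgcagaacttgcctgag
Pgk1: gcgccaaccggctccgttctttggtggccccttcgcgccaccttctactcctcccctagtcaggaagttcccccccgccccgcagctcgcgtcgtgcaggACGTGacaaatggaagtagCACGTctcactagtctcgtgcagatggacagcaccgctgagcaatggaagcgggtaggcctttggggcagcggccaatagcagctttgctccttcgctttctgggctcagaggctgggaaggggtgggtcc
Hk2: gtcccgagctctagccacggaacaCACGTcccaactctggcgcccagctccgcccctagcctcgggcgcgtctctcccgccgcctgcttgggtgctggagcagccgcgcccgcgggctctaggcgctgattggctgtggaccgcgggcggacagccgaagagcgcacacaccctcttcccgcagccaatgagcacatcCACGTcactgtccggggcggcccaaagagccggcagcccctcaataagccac
Aldoc: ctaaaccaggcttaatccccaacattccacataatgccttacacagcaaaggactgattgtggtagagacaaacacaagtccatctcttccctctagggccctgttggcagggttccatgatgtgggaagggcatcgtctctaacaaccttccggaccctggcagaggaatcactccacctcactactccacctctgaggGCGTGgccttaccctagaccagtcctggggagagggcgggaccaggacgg
Ldha held 5 copies of ACGTG in this window, 4 of them from its 2 CACGTG boxes. Pgam1 held 1 ACGTG and 2 GCGTG, Pgk1 and Hk2 held 2 ACGTG each, and Aldoc held 1 GCGTG. Each match is a description of these letters only, and no binding was measured.

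The labelled cell type was checked first. All 16 dendritic cell markers were in the table. Each lay above the median gene on the log2 scale not corrected for length (per kilobase Zbtb46 stood at the 48.4th percentile). All 13 macrophage and monocyte markers and 6 of the 12 measured neutrophil markers lay above that median as well. This check therefore does not tell dendritic cells from other myeloid cells. The 5 B cell and 7 erythroid markers were not in the table. With lysate 9 dendritic cell markers fell in wild-type cells, and 8 fell and 1 rose in KO-labelled cells. Between genotypes 5 were higher and 2 lower in KO-labelled cells alone, and 9 were higher with lysate. Of 13 neutrophil markers 12 were measured (Ly6g was not in the table). In KO-labelled cells 11 of the 12 were lower alone and 11 with lysate, not necessarily the same 11. With lysate 1 neutrophil marker rose and 4 fell in wild-type cells, and 1 rose and 2 fell in KO-labelled cells. Their log2 summed level ranged from 14.36 to 14.54 in the wild-type libraries and from 13.31 to 13.44 in the KO-labelled ones. Of 13 macrophage and monocyte markers 7 were lower in KO-labelled cells alone and 4 with lysate, while lysate raised 3 and lowered 5 in wild-type cells and raised 3 and lowered 1 in KO-labelled cells. Of 11 melanocyte and B16 markers 6 were measured, and all 6 were higher with lysate in both genotypes, with a log2 summed level of 16.04 to 16.19 without lysate and 16.65 to 16.85 with it. Nearly all of that sum was Gpnmb, which myeloid cells also express and which alone read 16.02 to 16.17 and 16.63 to 16.83. Dct, Tyrp1, Pmel and Slc45a2 lay between 3.63 and 6.38. Tyr, Mlana and Sox10, which define melanocytes, were not in the table. In bulk RNA, fewer cells of a type and less RNA per cell cannot be told apart.

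Compared per kilobase of transcript, Aldoa was the most abundant of the 10 and Aldoc the least. The mean log2 level per kilobase over the 8 libraries was 12.60 for Aldoa, 12.27 for Pkm, 11.55 for Ldha, 11.32 for Pgam1, 10.72 for Pgk1, 10.53 for Tpi1, 10.30 for Gapdh, 10.28 for Gpi1, 7.80 for Hk2 and 6.64 for Aldoc. Aldoa stood at the 98.9th percentile of all genes with a transcript length, Gapdh at the 94.0th, Hk2 at the 66.6th and Aldoc at the 44.6th. Each gene of this order exceeded the next in 8 of 8 libraries, except around Gapdh. Tpi1 exceeded Gapdh in 7, and Gapdh exceeded Gpi1 in 4. By group mean, Gapdh stood above Gpi1 with lysate and below it without. With lysate Gapdh and Gpi1 read 10.58 and 10.43 in wild-type cells and 10.36 and 10.20 in KO-labelled cells. Without lysate they read 10.25 and 10.33 in wild-type cells and 10.02 and 10.15 in KO-labelled cells. Agreement between libraries cannot show a bias that all of them share. Of the 50-base windows of Gapdh and Pgk1, 82.5% and 68.0% also occurred in transcripts of other genes. The places of Gapdh and Pgk1 in this order are therefore uncertain.

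Isozymes of a step were compared for 4 steps. Aldoa exceeded Aldoc by 50.6- to 78.9-fold per kilobase, and Ldha exceeded Ldhb, the other main lactate dehydrogenase subunit, by 30.6- to 52.1-fold. Pgam1 exceeded Pgam2, the muscle form, by 13.8- to 37.2-fold. Hk2 stood at 0.209 to 0.409 times the level of Hk3, the hexokinase best known from myeloid cells, and at 0.752 to 1.05 times that of Hk1. A regularized log scale pulls low genes towards their mean, so these ratios hold on that scale only.

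**Figure D1:**
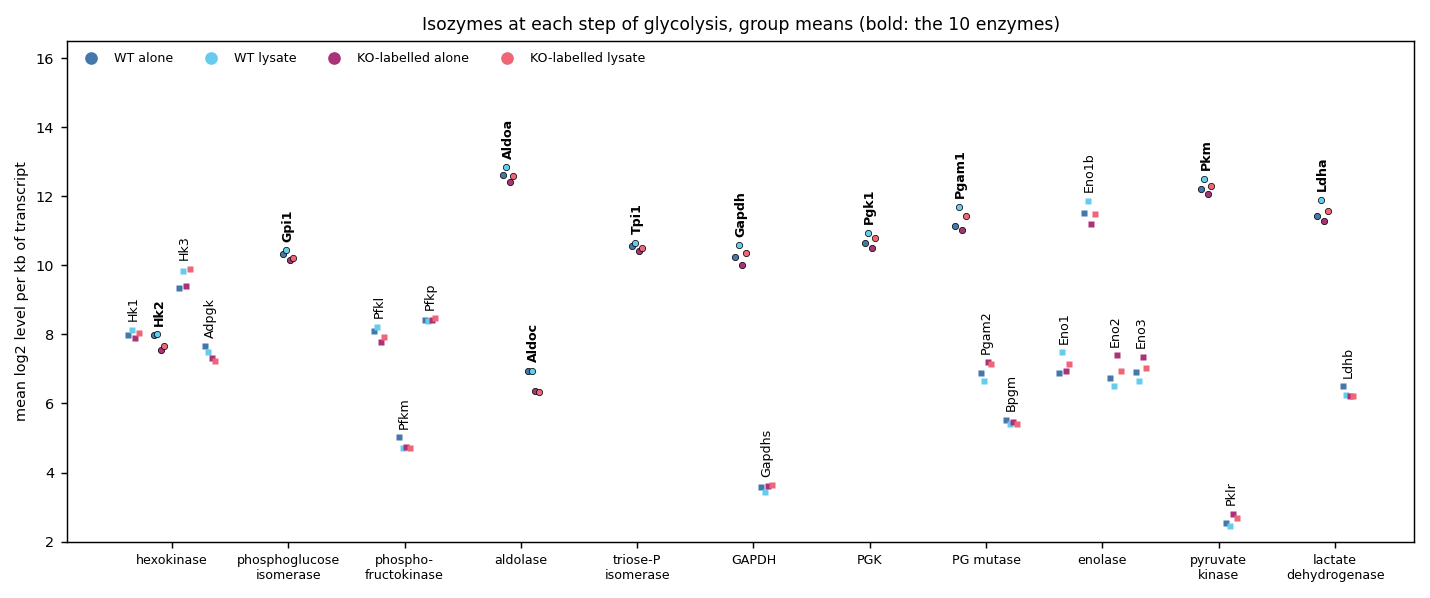
Group mean log2 level per kilobase of transcript (vertical axis) for the measured enzymes of each glycolytic step (horizontal axis), with the 10 enzymes named here in bold. Aldoa and Pkm sit at the top, near 12.60 and 12.27, and Aldoc lies far below Aldoa.

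The enzymes of the preparatory steps are given first, each with its 2 libraries per group. Hk2 (Entrez 15277) read 10.44 and 10.46 in wild-type cells alone, 10.43 and 10.49 with lysate, 10.04 and 10.00 in KO-labelled cells alone, and 10.10 and 10.16 with lysate. Its 4 wild-type libraries lay above all 4 KO-labelled ones, and lysate moved it little. Gpi1 (14751) read 11.79 and 11.93, 12.04 and 11.88, 11.70 and 11.66, and 11.69 and 11.77 in the same order of groups. The wild-type libraries were again the higher ones, while the lysate groups overlapped their controls.

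Aldoa (11674) read 13.20 and 13.29 in wild-type cells alone, 13.46 and 13.46 with lysate, 13.09 and 12.98 in KO-labelled cells alone, and 13.16 and 13.24 with lysate. It was highest in the wild-type lysate libraries and lowest in the KO-labelled cells alone. Aldoc (11676), the aldolase form best known from brain, read 8.38 and 8.45, 8.44 and 8.37, 7.90 and 7.78, and 7.81 and 7.79. All 4 wild-type libraries stood clear above the KO-labelled ones, with no separation by lysate. Tpi1 (21991) read 11.21 and 11.27, 11.26 and 11.42, 11.15 and 11.07, and 11.14 and 11.21, a narrow range in which neither lysate group cleared its control.

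In the payoff steps the lysate groups stood apart from their controls for every gene. Gapdh (14433) read 10.72 and 10.80 in wild-type cells alone, 11.24 and 10.93 with lysate, 10.63 and 10.42 in KO-labelled cells alone, and 10.85 and 10.88 with lysate. The wild-type lysate libraries differed by 0.30 from each other and the KO-labelled libraries alone by 0.21. Pgk1 (18655) read 11.53 and 11.52, 11.65 and 11.97, 11.35 and 11.40, and 11.65 and 11.66. Its wild-type lysate libraries were 0.32 apart and overlapped the KO-labelled lysate libraries.

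Pgam1 (18648) read 11.98 and 11.98 in wild-type cells alone, 12.44 and 12.60 with lysate, 11.88 and 11.80 in KO-labelled cells alone, and 12.23 and 12.27 with lysate. All 4 lysate libraries lay above all 4 without it. Pkm (18746) read 13.42 and 13.56, 13.81 and 13.77, 13.39 and 13.32, and 13.56 and 13.62, and Ldha (16828) read 12.29 and 12.31, 12.74 and 12.78, 12.09 and 12.19, and 12.42 and 12.47. Ldha was ordered without overlap: wild type with lysate, KO-labelled with lysate, wild type alone, KO-labelled alone.

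**Figure D2:**
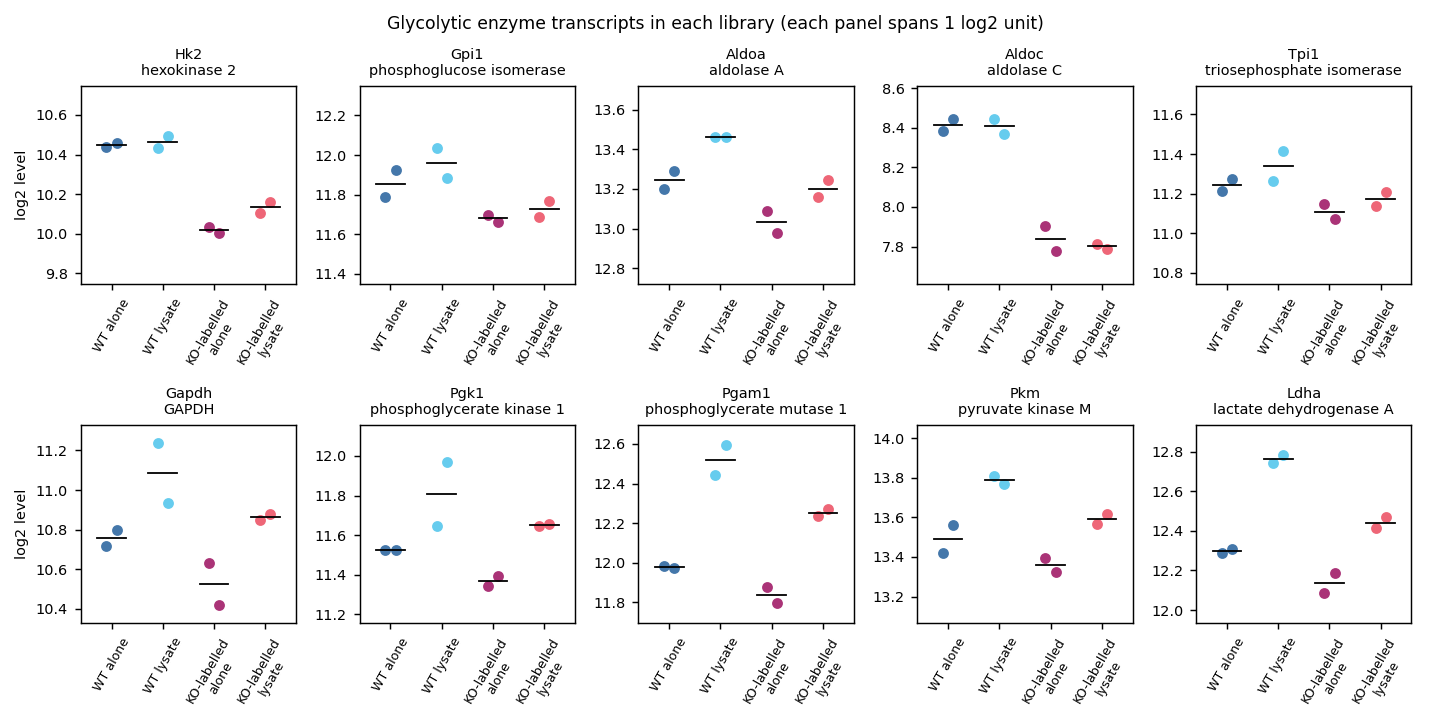
Log2 level (vertical axis, every panel spanning 1 log2 unit) of the 10 enzymes in the 4 groups (horizontal axis), with a point for each of the 2 libraries and a line for the group mean. Aldoc and Hk2 separate by genotype, and Pgam1 and Ldha separate by lysate within each genotype.

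Some of these transcripts share long stretches with processed pseudogenes, and the authors' handling of reads with several matches was not given in the sources used here. Of the 50-base windows of the longest coding transcript, 82.5% in Gapdh also occurred in transcripts of other genes, 215 of these annotated as pseudogenes. The share was 68.0% for Pgk1, 41.5% for Pgam1, 34.4% for Pkm, 25.3% for Gpi1, 16.6% for Ldha, 13.5% for Aldoa and 7.51% for Tpi1, and no window was shared for Hk2 or Aldoc. Levels of the genes with large shares are therefore uncertain. Gapdh and Pgk1, with the largest shares, also had the widest gaps between replicate libraries, 0.30 and 0.32 in wild-type cells with lysate. In the other groups the gaps ran from 0.031 to 0.21 for Gapdh and from 0.0013 to 0.051 for Pgk1. Whether shares and gaps go together was not tested.

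The first comparison asked what tumour lysate did to the pathway in wild-type cells. Transcripts of 6 of the 10 enzymes rose and none fell, against 10.2% of all genes higher and 11.3% lower at an adjusted p under 0.05. Pgam1 rose by 0.54 ± 0.069 on the log2 scale (SE), 1.45-fold (adjusted p = 0.000211). Ldha rose by 0.47 ± 0.064, 1.38-fold (adjusted p = 0.000342). Gapdh rose by 0.33 ± 0.097 (adjusted p = 0.0294), Pkm by 0.30 ± 0.068 (adjusted p = 0.00795), Pgk1 by 0.28 ± 0.088 (adjusted p = 0.0362) and Aldoa by 0.22 ± 0.068 (adjusted p = 0.0353). The other 4 were not called: Gpi1 at 0.10 (95% interval -0.057 to 0.27), Tpi1 at 0.099 (-0.058 to 0.25), Hk2 at 0.016 (-0.13 to 0.16) and Aldoc at -0.0077 (-0.19 to 0.17). For 6 genes both lysate libraries exceeded both controls, which held for 28.5% of all genes, with 32.3% the other way round. The median change was 0.25 over the 10 enzymes and -0.010 over all genes tested.

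Pgam1 and Ldha kept their calls in each of the 21 alternative settings. The count of 6 fell to 2 without wild-type alone replicate 1 and to 3 without wild-type alone replicate 2, wild-type lysate replicate 1, or either KO-labelled lysate replicate. Leaving out replicate 1 of either wild-type group removed the call of Pkm (change 0.23 to 0.28, adjusted p 0.0561 to 0.0645). Gapdh lost it without either wild-type alone replicate, wild-type lysate replicate 1 or either KO-labelled lysate replicate (0.18 to 0.37, adjusted p 0.0613 to 0.284). Pgk1 lost it without either wild-type alone replicate, wild-type lysate replicate 2 or either KO-labelled lysate replicate (0.12 to 0.28, adjusted p 0.0719 to 0.286). Aldoa lost it without any of 6 libraries, all but the KO-labelled cells alone (0.17 to 0.26, adjusted p 0.0632 to 0.164). Without a mean-variance trend Aldoa and Pgk1 were not called (adjusted p 0.0664 and 0.0587), nor was Aldoa with only the 2 groups fitted (adjusted p = 0.0613). The melanocyte markers rose with lysate as well, Dct by 1.13 in wild-type cells, and the part of lysate RNA in the enzyme changes was not tested.

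In KO-labelled cells the same comparison called 5 of the 10 enzymes higher and none lower, against 8.28% of all genes higher and 6.92% lower. Pgam1 rose by 0.42 ± 0.069 (adjusted p = 0.00161), Gapdh by 0.34 ± 0.097 (adjusted p = 0.0313), Ldha by 0.31 ± 0.064 (adjusted p = 0.00660), Pgk1 by 0.28 ± 0.088 (adjusted p = 0.0456) and Pkm by 0.23 ± 0.068 (adjusted p = 0.0358). All 5 belong to the payoff and lactate steps. Aldoa changed by 0.17 (95% interval 0.023 to 0.32, adjusted p = 0.111), Hk2 by 0.11 (-0.031 to 0.26), Tpi1 by 0.064 (-0.092 to 0.22), Gpi1 by 0.048 (-0.11 to 0.21) and Aldoc by -0.039 (-0.22 to 0.14), none of them called. For 7 genes both lysate libraries exceeded both controls, as for 28.9% of all genes, with 30.2% the other way round. The median was 0.20 over the 10 and -0.0013 over all genes tested.

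Pgam1 alone kept its call in KO-labelled cells in each of the 21 settings. The count of 5 fell to 1 without either KO-labelled lysate replicate, to 2 without KO-labelled alone replicate 1 and to 3 without KO-labelled alone replicate 2. Gapdh lost its call without KO-labelled alone replicate 2 or either lysate replicate (0.23 to 0.35, adjusted p 0.109 to 0.184). Ldha and Pgk1 lost theirs without KO-labelled alone replicate 1 or either lysate replicate, Ldha at 0.26 to 0.33 (adjusted p 0.0545 to 0.0899) and Pgk1 at 0.26 to 0.29 (adjusted p 0.116 to 0.210). Pkm lost its call without any of the 4 KO-labelled libraries (0.20 to 0.27, adjusted p 0.0596 to 0.220). Quantile normalization ended the calls of Gapdh and Pgk1 (adjusted p 0.0505 and 0.0560), and a fit with no mean-variance trend those of Gapdh, Pgk1 and Pkm (0.0500, 0.0735 and 0.0688). Dct, the melanocyte enzyme, was 1.31 higher with lysate here, and its part in the result was not tested.

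Split by textbook phase, a split made after these values were seen, the payoff and lactate genes were called higher with lysate 5 of 5 times in each genotype, with changes of 0.28 to 0.54 in wild-type and 0.23 to 0.42 in KO-labelled cells. Over all genes 10.2% and 8.28% were called higher in these comparisons. The preparatory genes were called 1 of 5 times in wild-type and 0 of 5 times in KO-labelled cells, with changes of -0.0077 to 0.22 and -0.039 to 0.17. The difference between the phases was not tested, and the split covers the 10 enzymes only. Hk3, another hexokinase, was called higher in both genotypes, by 0.50 in each. The enolases, also a payoff step, moved both ways. Eno1 was called higher in wild-type cells (0.61) and Eno1b in both genotypes (0.37 and 0.29). Eno2 and Eno3 were called lower in KO-labelled cells (-0.46 and -0.33, over the left-out libraries -0.53 to -0.38 and -0.40 to -0.26). Eno1b ran from 0.21 to 0.38 there over the left-out libraries. In KO-labelled cells none of the calls of Eno1b, Eno2 and Eno3 held in all 21 settings.

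The lysate response itself did not differ detectably between the genotypes. For the difference of the lysate effects, 0 of the 10 enzymes were called by limma and 0 had an unadjusted p under 0.05, while 13 of all genes (0.110%) were called higher and 0 (0%) lower. The differences, KO-labelled minus wild type, ran from -0.16 for Ldha (95% interval -0.36 to 0.036, adjusted p = 0.698) to 0.098 for Hk2 (-0.11 to 0.30, adjusted p = 0.826). Pgam1 stood at -0.12 (-0.34 to 0.087). These intervals leave room for differences as large as the smaller lysate changes themselves, so a like response is not shown.

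**Figure D3:**
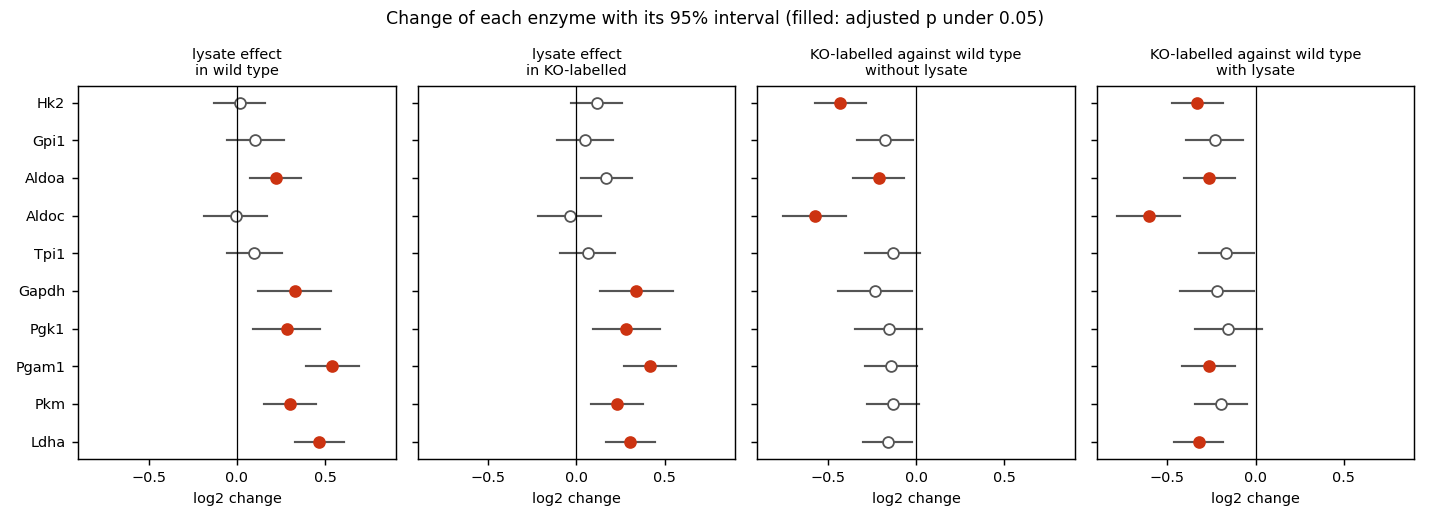
Log2 change (horizontal axis) with its 95% interval for each of the 10 enzymes (vertical axis) in 4 comparisons, where filled points have an adjusted p under 0.05. Lysate changes lie near or above 0 and are largest for Pgam1 in both genotypes, and the genotype differences all lie below 0 and are largest for Aldoc and Hk2.

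The genotype comparison in cells alone asked whether the pathway stood at another level in KO-labelled cells. All 10 enzymes read lower in both KO-labelled libraries than in both wild-type ones, an order found for 26.4% of all genes, and 3 of the 10 passed the test, against 9.23% of all genes called lower and 7.02% higher. Aldoc fell by 0.57 ± 0.083 on the log2 scale, 1.49-fold lower (adjusted p = 0.000457), and Hk2 fell by 0.43 ± 0.067, 1.35-fold lower (adjusted p = 0.000786). Aldoa fell by 0.21 ± 0.068 (adjusted p = 0.0490). The 7 that were not called lay between -0.23 for Gapdh (adjusted p = 0.129) and -0.13 for Pkm (adjusted p = 0.235). The others read -0.18 for Gpi1, -0.16 for Ldha, -0.15 for Pgk1, -0.14 for Pgam1 and -0.13 for Tpi1. The median was -0.17 over the 10 enzymes and 0.0022 over all genes tested.

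Aldoc and Hk2 kept these calls in each of the 21 settings. Aldoa lost its call without any 1 library other than KO-labelled alone replicate 1 (-0.26 to -0.16, adjusted p 0.0561 to 0.258), and also with quantile normalization (adjusted p = 0.0642), without a mean-variance trend (0.0903) and with only the 2 groups fitted (0.110). With each library's trend on transcript GC content and length removed, 9 of the 10 enzymes were called lower, all but Pgk1, while the share of all genes called lower rose to 14.7% as well. Gpi1 then stood at -0.18 (adjusted p = 0.0259) and Ldha at -0.16 (adjusted p = 0.0193). The neutrophil markers were lower in the same libraries, with a median log2 change of -1.23, and their part in the enzyme differences was not tested.

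With lysate, 5 of the 10 enzymes were lower in KO-labelled cells and none higher, against 5.45% of all genes lower and 7.44% higher. Aldoc fell by 0.61 ± 0.083, 1.52-fold lower (adjusted p = 0.000719). Hk2 fell by 0.33 ± 0.067 (adjusted p = 0.00720), Ldha by 0.32 ± 0.064 (adjusted p = 0.00659), Pgam1 by 0.27 ± 0.069 (adjusted p = 0.0237) and Aldoa by 0.26 ± 0.068 (adjusted p = 0.0233). The others read -0.23 for Gpi1 (adjusted p = 0.0573), -0.22 for Gapdh (adjusted p = 0.151), -0.20 for Pkm (adjusted p = 0.0729), -0.17 for Tpi1 (adjusted p = 0.146) and -0.15 for Pgk1 (adjusted p = 0.266). Both KO-labelled libraries lay below both wild-type ones for 9 genes, all but Pgk1, as for 31.0% of all genes, with 29.6% the other way round. The median was -0.25 over the 10 enzymes and -0.0085 over all genes tested.

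Aldoc alone kept its call in this comparison in each of the 21 settings. The count of 5 fell to 1 without KO-labelled lysate replicate 1, and to 3 without KO-labelled lysate replicate 2 or wild-type lysate replicate 2. In those fits the number of all genes called fell as well, from 1519 to 193, 488 and 716. The count rose to 7 with the GC and length trend removed or with only the lysate groups fitted. Hk2 lost its call without wild-type lysate replicate 2 or KO-labelled lysate replicate 1 (-0.30 in both, adjusted p 0.0519 and 0.125), and Ldha without KO-labelled lysate replicate 1 (-0.30, adjusted p = 0.121). Pgam1 lost it without wild-type lysate replicate 2 or either KO-labelled lysate replicate (-0.28 to -0.19, adjusted p 0.108 to 0.220), and Aldoa without any of the 4 lysate libraries (-0.30 to -0.22, adjusted p 0.0812 to 0.252) or with quantile normalization (adjusted p = 0.0616). The neutrophil markers had a median change of -1.08 here and their part was not tested. The 4 comparisons share libraries, so their values are side by side and not independent.

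The rest of the pathway did not move as a block. Of 20 other glycolytic enzymes and isozymes 15 were measured. With lysate 3 rose and 1 fell in wild-type cells, and 2 rose and 2 fell in KO-labelled cells. Hk3 rose by 0.50 in both (adjusted p = 0.000696 and 0.000945) while Hk2 read 0.016 and 0.11. Eno1b, one of the entries for the main enolase, rose by 0.37 in wild-type cells (adjusted p = 0.00442). Eno1, named after its values were seen and nearly identical in sequence to Eno1b, read 0.61 (adjusted p = 0.00997) but was not called once replicate 2 of wild-type cells alone or replicate 1 of wild-type cells with lysate was left out, at 0.30 to 0.91 over the left-out libraries. In KO-labelled cells alone 4 were higher and 3 lower than in wild type, and with lysate 3 were higher and 3 lower. The same 3 were lower in both treatments: Eno1b (-0.31 alone, -0.39 with lysate), Pfkl (-0.34, -0.30) and Adpgk (-0.34, -0.27). They shared the direction of the 10 enzymes, but none of these calls held in all 21 settings. Per kilobase, Eno1b stood at the 97.4th percentile, Pfkl at the 70.0th and Adpgk at the 59.5th. Eno2, Eno3 and Pgam2, higher in both treatments, stood at the 49.4th, 51.1st and 50.7th. Eno2, the neuronal enolase, read 8.20 and 8.26 in wild-type and 8.85 and 8.91 in KO-labelled cells alone, a rise of 0.65 ± 0.083 (adjusted p = 0.0002), opposite to the 10 enzymes.

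Glucose enters and lactate leaves through membrane transporters, and phosphofructokinase is tuned by the PFKFB enzymes. Of 11 transport genes 9 were measured. In KO-labelled cells 4 were lower in each treatment, with none higher, but Slc16a3 was among them only in cells alone. Slc2a3, the high-affinity glucose transporter, fell by 0.79 ± 0.090 alone (adjusted p = 8.7e-05) and by 0.59 ± 0.090 with lysate (adjusted p = 0.00131). Slc16a3, the lactate exporter, fell by 0.50 ± 0.088 alone (adjusted p = 0.00186), and Emb, a chaperone of such transporters, by 0.48 ± 0.074 (adjusted p = 0.000683). With lysate 2 transport genes rose and 1 fell in wild-type cells, and 1 rose and 1 fell in KO-labelled cells. Slc2a6 fell by 0.65 ± 0.083 in wild-type cells (adjusted p = 0.000182). Of 5 regulators of phosphofructokinase, 1 was higher and 1 lower in KO-labelled cells alone, and 1 higher with lysate. Lysate lowered 1 of the 5 in wild-type cells and none was called in KO-labelled cells by limma, where 1 read higher and 1 lower at an unadjusted p under 0.05. Pfkfb3, which drives phosphofructokinase, read 13.04 and 12.98 in wild-type and 13.40 and 13.40 in KO-labelled cells alone, and was higher by 0.38 ± 0.063 alone (adjusted p = 0.00117) and by 0.43 ± 0.063 with lysate (adjusted p = 0.00100). Pfkfb4 fell by 0.47 ± 0.082 alone (adjusted p = 0.00176). Among these, Emb, Slc16a3, Slc2a3, Slc2a6, Pfkfb3 and Pfkfb4 kept the calls given here in each of the 21 settings.

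Of 12 pentose phosphate genes 11 were measured, and 6 were lower in KO-labelled cells alone and 3 with lysate, with none higher. H6pd fell by 0.49 ± 0.077 (adjusted p = 0.000817) and the transketolase Tkt by 0.37 ± 0.069 (adjusted p = 0.00238), both in cells alone. With lysate none of the 11 was called in wild-type cells by limma, where 2 read higher at an unadjusted p under 0.05, and 2 rose in KO-labelled cells. Of 9 measured glycogen genes 3 rose and 1 fell with lysate in either genotype. The branching enzyme Gbe1 rose by 0.56 ± 0.094 in wild-type cells (adjusted p = 0.00120) and Ugp2, which makes UDP-glucose, by 0.48 ± 0.089 (adjusted p = 0.00234). Pygl, which breaks glycogen down, fell by 0.33 ± 0.064 in KO-labelled cells alone (adjusted p = 0.00317), where it was the 1 glycogen gene called. With lysate 1 was higher and 1 lower in KO-labelled cells.

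Pyruvate entry into mitochondria was covered by 13 genes, of which lysate raised 3 and lowered 2 in wild-type cells and raised 1 in KO-labelled cells. Pdk2, a kinase that switches off pyruvate dehydrogenase, fell by 0.45 ± 0.085 in wild-type cells (adjusted p = 0.00261). Between genotypes 1 of the 13 was lower in each treatment. Of 7 genes of the NADH shuttles lysate raised 1 and lowered 1 in wild-type cells, where Got1 fell by 0.41 ± 0.067 (adjusted p = 0.000985), and 1 fell in KO-labelled cells. Between genotypes 1 shuttle gene was lower alone and 1 higher with lysate. Of 3 measured gluconeogenesis genes 1 fell with lysate in KO-labelled cells, and none passed the test by limma in the other comparisons, where 1 was higher at an unadjusted p under 0.05 in each genotype comparison and 0 in wild-type cells with lysate.

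**Figure D4:**
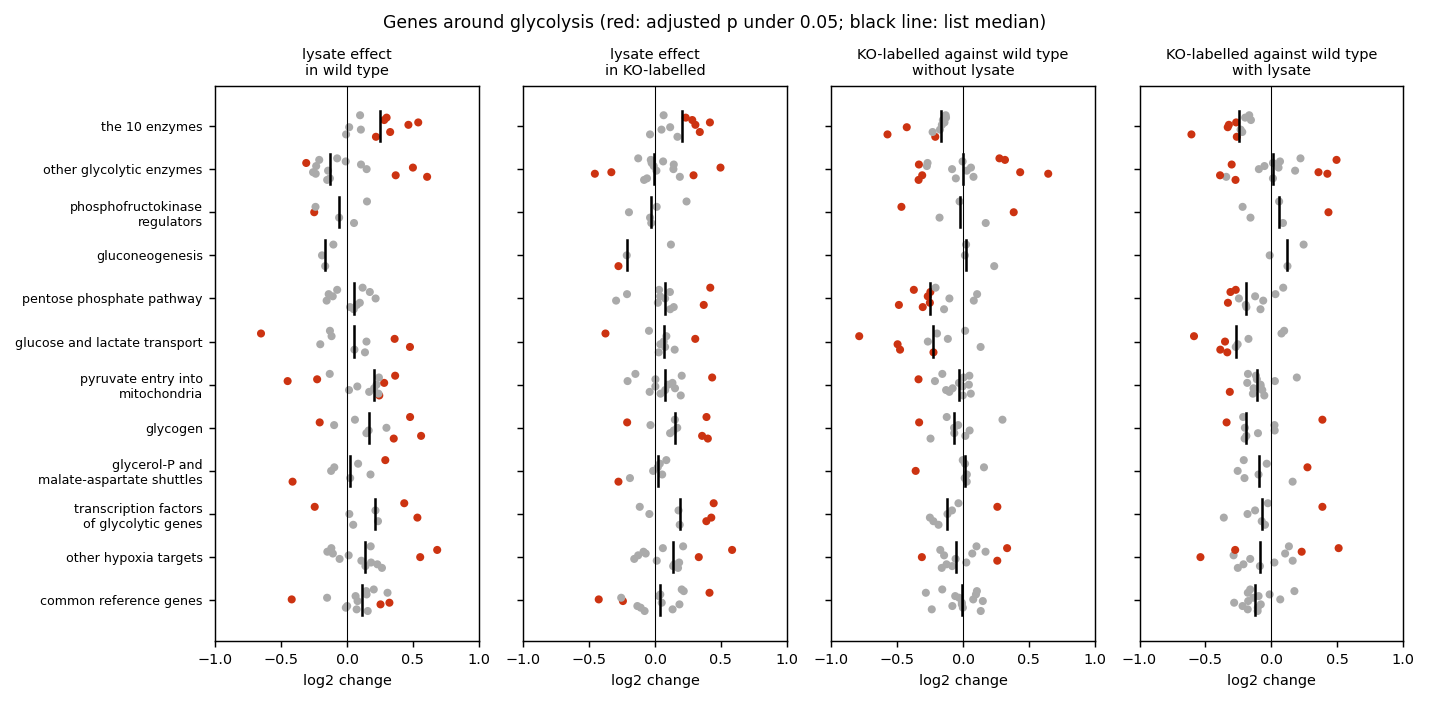
Log2 change (horizontal axis) of every measured gene of 12 lists (vertical axis) in 4 comparisons, with 1 point a gene. The 10 enzymes lie below 0 in both genotype comparisons, whereas the other glycolytic enzymes fall on both sides of 0.

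Of 9 transcription factors known to act on glycolytic genes 7 were measured. With lysate 2 rose and 1 fell in wild-type cells and 3 rose in KO-labelled cells, and between genotypes 1 was higher in either treatment. Hif1a read 11.31 and 11.17 in wild-type cells alone and 11.98 and 11.57 with lysate, a rise of 0.53 ± 0.13 (adjusted p = 0.0118) that was not called once replicate 2 of wild-type cells alone or replicate 1 with lysate was left out (0.33 to 0.74 over the left-out libraries). Myc rose by 0.43 ± 0.093 in wild-type cells (adjusted p = 0.00567) and lost that call without wild-type lysate replicate 1 (0.33 to 0.54 over the left-out libraries). Of 13 measured hypoxia targets outside glycolysis 2 rose with lysate in either genotype. P4ha1, a collagen prolyl hydroxylase, read 9.54 and 9.54 in wild-type cells alone and 10.25 and 10.20 with lysate, a rise of 0.68 ± 0.069 (adjusted p = 2.9e-05), and rose by 0.58 ± 0.069 in KO-labelled cells (adjusted p = 0.000147). Egln3, an oxygen-sensing hydroxylase that marks HIF for removal, rose by 0.56 ± 0.086 in wild-type cells (adjusted p = 0.000746) and fell by 0.54 between wild-type and KO-labelled cells with lysate (adjusted p = 0.00172). Between genotypes 2 hypoxia targets were higher and 1 lower in cells alone, and 2 higher and 2 lower with lysate.

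Gapdh and Pgk1 often serve as reference genes, so 14 other common reference genes were read beside them. With lysate 2 of the 14 rose and 1 fell in wild-type cells, against 10.2% of all genes higher and 11.3% lower. In KO-labelled cells 1 rose and 2 fell, against 8.28% higher and 6.92% lower. With 14 genes these counts are too small to set reference genes apart from other genes. The calls of Rpl13a, Ppia, Tfrc and Hprt among them did not hold in all 21 settings. Between genotypes none of the 14 was called by limma. At an unadjusted p under 0.05, 2 were lower in cells alone, and 1 was higher and 3 lower with lysate.

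Among the 10 enzymes the profile over the 8 libraries was not uniform. Centred on each gene's own mean, the average profile of the 10 read -0.020 and 0.041 in wild-type cells alone, 0.24 and 0.25 with lysate, -0.19 and -0.25 in KO-labelled cells alone, and -0.054 and -0.0082 with lysate. Aldoa lay closest to that average of all genes, itself included in it, with a root mean square difference of 0.022, and Pkm was the next of the 10, at 0.058 and rank 52 among all genes. Aldoc lay farthest, at 0.21, at rank 6212 among all genes. The 5 genes outside the lists with the most similar profile were Ctsz, a lysosomal cathepsin, at 0.031, the aldehyde dehydrogenase Aldh2 at 0.032, the interleukin receptor chain Il10rb at 0.034, the proton pump subunit Atp6v0c at 0.038 and the stress factor Xbp1 at 0.038, each over 8 libraries.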

How the data were processed

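RNA-seq was used from 8 libraries in 4 groups of 2; the 4 immunoprecipitation samples were not analysed here. Per the labels' protocols, libraries were made with a stranded mRNA kit. The deposited log2 values were read as DESeq2 regularized logarithms made by the authors from counts per Entrez gene. That reading is an inference from the table's name and the submitters' processing notes, which name STAR, deepTools, DESeq2 and mm9 without versions. The counting tool, its strand setting and its handling of multiple matches were not given in the sources used here. Depth is unknown without counts, low genes are pulled towards their mean, and values ran from 3.24 to 17.88 with library medians of 8.53 to 8.55. Overlapping or near-identical genes are uncertain.

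Identifiers were matched to RefSeq GRCm38.p6 symbols (11744 matched, 42 did not). This build differs from the authors', so it gave names and promoters only. Transcript length, GC content and shared 50-base windows came from the longest GENCODE coding transcript on GRCm38 (11487 genes, 97.5%).

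Comparisons used limma 3.58.1 (R 4.3.3) with a mean-variance trend, 1 fit over all 8 libraries, two-sided, Benjamini-Hochberg adjusted over the 11785 genes with a group mean of 4 or more (1 gene left out), threshold 0.05, with 4 residual and 9.33 prior degrees of freedom. The script was tested on simulated data. Intervals are 95% intervals of that fit. Figures were drawn with Python 3.11.15 and matplotlib 3.10.9. Alternatives were a replicate block, other filters, scalings, variance models, thresholds and samples, removal of the GC and length trend, leaving out each library, and a crossed block added after seeing the data.

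The 10 enzymes and all lists were chosen with earlier results of these data known. The text names every one of the 10, up to 4 genes of each other list with the smallest p in any comparison, and the 5 genes nearest in profile. Eno1, Eno3, Hk1, Ldhb, Pfkl and Adpgk lie outside that rule and were added after their values were seen. Gene lists covered other glycolytic enzymes, phosphofructokinase regulators, gluconeogenesis, the pentose phosphate pathway, transport, pyruvate entry, glycogen, shuttles, transcription factors, hypoxia targets, reference genes and markers of dendritic cells, macrophages, neutrophils, melanocytes, B cells, T and NK cells, erythroid cells, and mast cells and basophils. Of 8 T and NK cell and 6 mast cell markers 2 each were measured, and with lysate 2 and 1 of these were lower in wild-type cells.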

Additional observations from a re-analysis of the deposited data

How the results depend on the processing

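Of the 19 called changes of the 10 enzymes, 6 kept their call in every setting run and none changed sign. Of 89 called values of other genes recomputed the same way, 25 kept their call, 64 lost it without at least 1 library, and 0 changed sign.

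The numbers of called enzymes were 6 and 5 (lysate, wild type and KO-labelled), 3 and 5 (genotype, alone and with lysate) and 0 (difference of lysate effects). A threshold of 0.01 gave 3, 2 and 3 for wild-type lysate, KO-labelled lysate and genotype with lysate. For KO-labelled lysate, quantile normalization gave 3 and no mean-variance trend gave 2. For genotype alone, removal of the GC and length trend gave 9. Leaving out 1 library gave 2 to 6, 1 to 5, 2 to 4, 1 to 6 and 0 to 0 in that order.

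All genes called numbered 2534, 1792, 1915, 1519 and 13 in that order. Threshold 0.01 gave 1142, 759, 956, 526 and 1, and 0.10 gave 2427 for genotype with lysate and 21 for the difference. Removing the GC and length trend gave 2976, 3174, 2696 and 135 from KO-labelled lysate on, with 83.7% of the 135 higher against 100% of the 13. Fitting only the groups compared gave 1196 for genotype alone. For the difference, a filter at 6 gave 8 and no trend gave 1. Leaving out 1 library gave 1031 to 3152, 564 to 2275, 1174 to 1865, 193 to 2057 and 0 to 32.

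The replicate numbers as given did not pair the samples: same-numbered deviations correlated from -0.61 to 0.26. The -0.61 was between wild-type and KO-labelled cells alone, so those libraries shared variation with the numbers crossed. Its source was not tested. The replicate block gave 1994, 1407, 1540, 1086 and 1 genes, with 3 enzymes called for KO-labelled lysate. It ended the calls of Pgk1 and Pkm there (adjusted p 0.0574 and 0.0676) and of Aldoa for wild-type lysate (0.0647) and for genotype alone (0.0869, leaving 2 enzymes), and of no other among the 19 calls of the 10 enzymes. With the block and the GC and length trend removed, the counts were 2824, 3046, 2538 and 100 from KO-labelled lysate on, and 8 enzymes for genotype alone. The crossed block, with the numbers of KO-labelled cells alone swapped and chosen after seeing the data, gave 2919 genes for KO-labelled lysate, 2638 genes and 8 enzymes for genotype with lysate, and 54 genes for the difference.

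Reversals concerned uncalled values. In the wild-type lysate comparison Aldoc read 0.0065 with centring on 1 median, 0.0042 with quantile normalization and 0.0082 with the GC and length trend removed, with and without the replicate block. Left-out libraries gave Aldoc -0.045 to 0.029 and Hk2 -0.015 to 0.046 there, Aldoc -0.10 to 0.024 for KO-labelled lysate, and Pgk1 -0.31 to 0.0067 for genotype with lysate. For the difference, Pgk1 read -0.0085 with centring and -0.0015 with quantile normalization, and Tpi1 0.0029 with the GC and length trend removed, with and without the replicate block. Left-out libraries gave Aldoa -0.10 to 0.0049, Aldoc -0.094 to 0.031, Gapdh -0.14 to 0.16, Gpi1 -0.13 to 0.021, Pgk1 -0.16 to 0.16, Pkm -0.14 to 0.0028 and Tpi1 -0.11 to 0.044. The causes were not tested. A lone library left in a group was assumed to vary like the other groups.

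Depth is unknown, and no counting limit is given.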
